A study of Mus musculus with 9 samples.

Results

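The genes followed here were 9 markers of the cortical interneuron and GABA lineage (*Dlx1*, *Dlx2*, *Dlx5*, *Lhx6*, *Gad1*, *Gad2*, *Slc32a1*, *Sst* and *Npy*), taken by symbol from a deposited table of 14670 genes, and the table listed all 9. RNA was measured in cerebral cortex microdissected from mouse embryos at embryonic day 16.5, in 9 libraries, 3 of each of 3 genotypes. The labels give the genotypes as Control +/+ (libraries 1, 2 and 3), *Fzd3*-/- mutant (1, 2 and 3) and *Celsr3*-/- mutant (1, 2 and 4). By the study's methods both mutant lines were on a mixed C57Bl/6 and CD1 background and controls could be heterozygous or wild-type littermates, so that the control genotype is given differently in the labels and the methods. The labels name Trizol and the methods a column kit for the RNA. The methods give 3 cortical samples for each genotype and at least 3 animals for animal work in general, without saying whether each library came from 1 embryo. The *P* values measure the spread between these samples.

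Cortical interneurons are born in the ganglionic eminences of the ventral forebrain and reach the cortex by tangential migration in the second part of gestation. Homeodomain factors of the Dlx family switch on the GABA fate in these precursors, and cells of the medial eminence keep *Lhx6* as they migrate and mature into classes such as those that make somatostatin. The atypical cadherin *Celsr3* and the Frizzled receptor *Fzd3* are known to act together in axon guidance in the forebrain.

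Values were CPM, the reads of a gene scaled to the total reads of its library. The values of a library were multiples of a smallest step, within a tolerance of 0.1 step for every value under 200 steps, and taking that step as the worth of 1 read gave between 39857305 and 69600589 reads a library. At that depth the least covered marker value, *Dlx5* in control library 3, stood for 153 reads, with a counting error of 8.08%, and the other 8 markers had at least 406 reads in each library. These figures cover counting error only. Genotypes were compared with limma on log2(CPM + 0.5) in a single fit of the 9 libraries, in which fold changes of genes with low values are understated, and a gene was called at an adjusted *P* below 0.05 over all 14670 genes. Both comparisons with control used the same 3 control libraries, and each pair of the 3 comparisons shared the libraries of a genotype.

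The mutated genes were read first as a check of the labels. *Celsr3* (XLOC_033590) was at 196, 243 and 214 CPM in controls, 253, 213 and 255 CPM in *Fzd3* mutants and 122, 139 and 118 CPM in *Celsr3* mutants. The 3 *Celsr3* mutant libraries lay below the other 6, and the gene fell by 0.78 on the log2 scale against control (standard error 0.0910, limma adjusted *P* = 0.00180, lower in 3 of 3 libraries). The call held without each library in turn, with a log2 fold change of -0.73 without *Celsr3* mutant library 4 (limma adjusted *P* = 0.0119, against 0.00136 to 0.0699 over all 18 alternatives). Reads of *Celsr3* remained at 118 CPM or more in each *Celsr3* mutant library, and a single value per gene does not show which exons they cover. *Fzd3* (XLOC_010468) was at 58.0, 67.7 and 46.9 CPM in controls and at 46.5, 39.8 and 59.6 CPM in the libraries labelled *Fzd3*-/-. These ranges overlapped, with a log2 fold change of -0.24 (limma adjusted *P* = 0.240). Without *Fzd3* mutant library 3 it passed, at -0.40 (limma adjusted *P* = 0.0457, against 0.0457 to 0.633 over all 18 alternatives). The mutant *Fzd3* allele described for the study lacks exon 3, but the sources used here do not say whether the embryos of these libraries carried it. A single value per gene also holds reads from the other exons, so this value does not check the label. The name *Fzd3* mutant rests on the labels alone.

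*Celsr3* mutant library 4 stood apart from the other 8 libraries in 5 listed markers of meninges and fibroblasts. Their summed level was 12.2, 16.2 and 10.5 CPM in controls, 21.04, 19.5 and 14.7 CPM in *Fzd3* mutants and 15.2, 15.3 and 175 CPM in *Celsr3* mutants. *Col3a1*, the most abundant of them, was at 87.6 CPM in that library and at most 6.86 CPM in the others. The labelled tissue was checked with 14 genes of the cortical excitatory lineage, of which 13 were listed (all but *Neurod1*), among them *Neurod6* at 758 CPM or more and *Tbr1* at 277 CPM or more in each library.

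*Npy*, which encodes neuropeptide Y, was 3.95 times its control level in *Fzd3* mutants and was the only marker of the 9 called there. The other 8 lay between 0.778 times (*Sst*) and 1.202 times (*Gad1*) the control level, none of them past the threshold. The count of 1 of 9 stands against 29.8% of all listed genes called in this comparison, with 15.0% higher and 14.8% lower, so calls were no more frequent among the markers than among all genes. At an unadjusted *P* under 0.05 there was also 1 marker, against 41.4% of all genes. The median log2 fold change was -0.02 over the 9 markers and -0.00 over all genes. *Npy* was also the only marker whose 3 mutant libraries all lay on the same side of the control range, against 21.6% of all genes above it and 22.2% below it. Without *Fzd3* mutant library 3 the count was 2, as *Lhx6* then passed. In bulk RNA, fewer cells of a type and less RNA per cell cannot be told apart, which applies to each difference described here.

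No marker was called in *Celsr3* mutants against control by limma, where 0.307% of all genes were called (0.13% higher and 0.177% lower), and this was so in each of the 18 alternative analyses. At an unadjusted *P* under 0.05 there were 4 markers, *Npy* on the higher side and *Gad2*, *Dlx1* and *Sst* on the lower, against 5.45% of all genes. The lowest limma adjusted *P* = 0.511 was that of *Gad2*, with a log2 fold change of -0.25 and 3 of 3 libraries lower. The log2 fold change was below 0 for 8 of the 9 markers, with a median of -0.22 beside -0.00 over all genes. The 3 mutant libraries lay above the controls for *Npy* and below them for *Gad2*, as they did for 5.14% and 5.27% of all genes. *Celsr3* mutant library 4, with its high fibroblast markers, had the lowest value of its genotype for 8 of the 9 markers, and the part of those fibroblast transcripts in these values was not tested.

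Compared with each other, the mutants differed in 4 of the 9 markers, and *Npy*, *Gad1*, *Lhx6* and *Gad2* were called higher in *Fzd3* than in *Celsr3* mutants. Over all genes 29.6% were called here, 15.3% higher and 14.3% lower. At an unadjusted *P* under 0.05 the same 4 markers stood against 40.9% of all genes. Each of the 9 differences was above 0, from 0.07 for *Dlx5* to 1.53 for *Npy*, with a median of 0.23 beside -0.00 over all genes. The libraries of the mutants did not overlap for *Npy*, *Gad1* and *Gad2*, against 22.3% of all genes on the higher side. The count of 4 rested on single libraries, being 1 without *Fzd3* mutant library 1, 2 without *Fzd3* mutant library 2, 1 without *Celsr3* mutant library 2 and 1 without *Celsr3* mutant library 4.

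**Figure D1:**
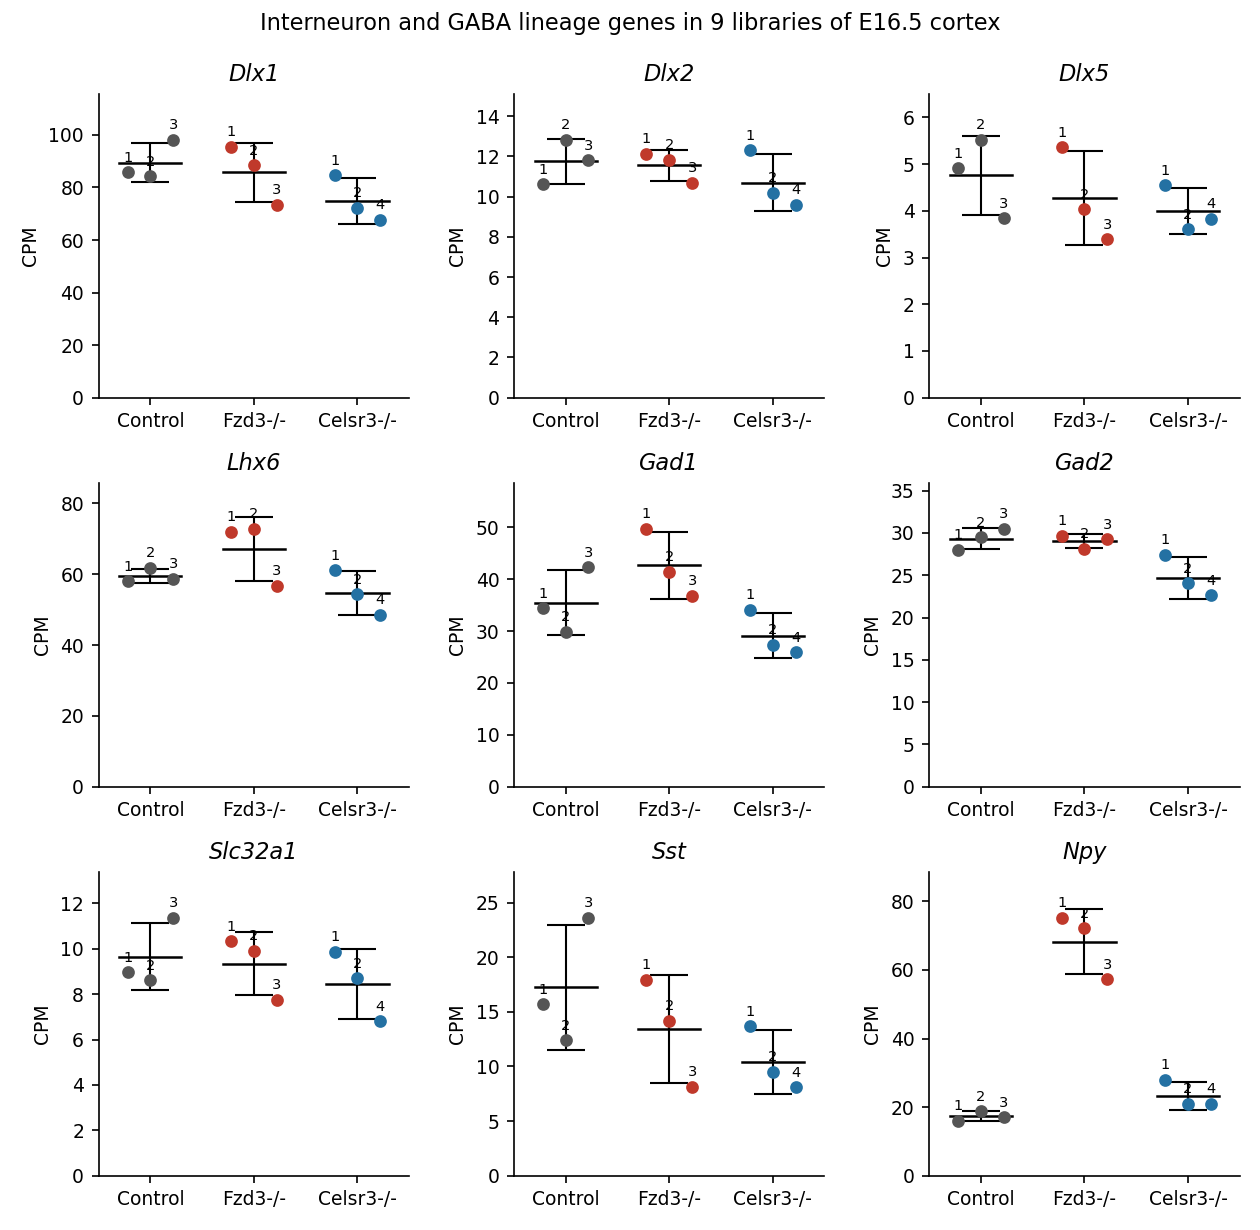
CPM of the 9 markers in each library, with libraries numbered as in the labels, horizontal lines for genotype means and error bars for s.d. (n = 3 libraries). The y axes start at 0 and differ between genes, and *Npy* lies between 57.3 and 75.2 CPM in the *Fzd3* mutants, above the other 6 libraries.

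**Figure D2:**
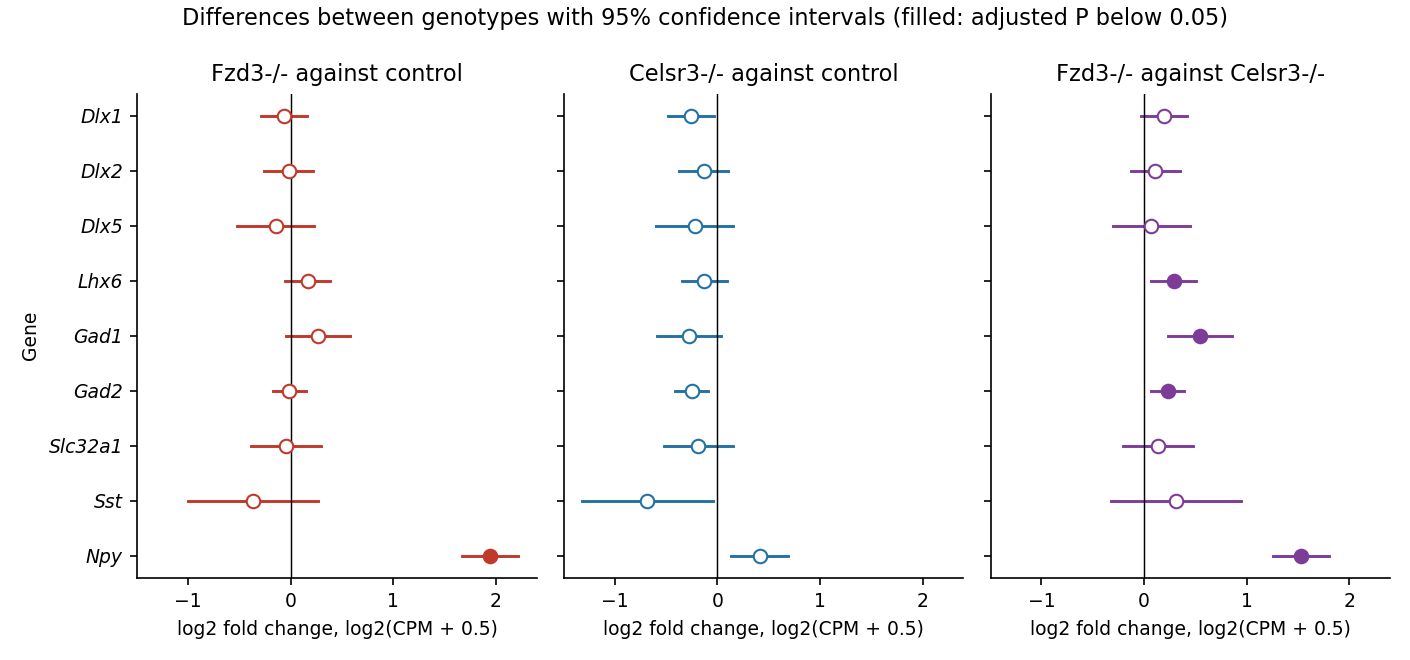
Log2 fold change of each marker on the log2(CPM + 0.5) scale in the 3 comparisons, with 95% confidence intervals from the limma fit and filled points for an adjusted *P* below 0.05. There is 1 filled point for *Fzd3* mutants against control, 0 for *Celsr3* mutants against control and 4 between the mutants.

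The Dlx genes encode transcription factors needed for GABA neurons to differentiate and migrate. *Dlx1* (XLOC_016923, chr2:71528113-71533981 on GRCm38) was at 85.9, 84.4 and 98.1 CPM in controls, 95.5, 88.5 and 73.5 CPM in *Fzd3* mutants and 84.6, 72.3 and 67.8 CPM in *Celsr3* mutants. The ranges overlapped, with control library 3 the highest and *Celsr3* mutant library 4 the lowest. The log2 fold change was -0.06 in *Fzd3* mutants (95% confidence interval -0.29 to 0.16) and -0.26 in *Celsr3* mutants (-0.48 to -0.03). Between the mutants the difference was 0.19 (limma adjusted *P* = 0.184, over the alternatives 0.0351 to 0.504), and it passed without *Fzd3* mutant library 3, at 0.30 (limma adjusted *P* = 0.0351). On the other strand, 9.43 kb away, lies *Dlx2* (XLOC_018575, chr2:71543408-71546754), a close relative with overlapping function. *Dlx2* was at 10.6, 12.8 and 11.8 CPM in controls, 12.1, 11.8 and 10.7 CPM in *Fzd3* mutants and 12.3, 10.2 and 9.60 CPM in *Celsr3* mutants. *Dlx5* (XLOC_027195, chr6:6877805-6882085), which acts downstream of that pair, was at 4.91, 5.52 and 3.84 CPM in controls, 5.37, 4.04 and 3.398 CPM in *Fzd3* mutants and 4.54, 3.61 and 3.83 CPM in *Celsr3* mutants. For these 2 genes the genotypes overlapped throughout. The intervals of the log2 fold change for *Dlx2* were -0.26 to 0.22 in *Fzd3* and -0.37 to 0.10 in *Celsr3* mutants. For *Dlx5* they were -0.52 to 0.23 and -0.59 to 0.16, and differences up to these bounds are not excluded with 3 libraries a genotype.

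*Lhx6* (XLOC_018390, chr2:36081953-36105408) encodes the LIM homeodomain factor by which interneurons of the medial eminence are specified. It was at 58.0, 61.9 and 58.7 CPM in controls, 72.0, 72.8 and 56.7 CPM in *Fzd3* mutants and 61.1, 54.4 and 48.6 CPM in *Celsr3* mutants. *Fzd3* mutant libraries 1 and 2 were above the controls and library 3 below them, whereas among the *Celsr3* mutants library 1 was within the control range and libraries 2 and 4 below it. The log2 fold change in *Fzd3* mutants was 0.16 (with a standard error of 0.0991 and a limma adjusted *P* = 0.238, over the alternatives 0.0268 to 0.544). It passed in 1 of 18 alternatives, without *Fzd3* mutant library 3, at 0.28 (limma adjusted *P* = 0.0268). In *Celsr3* mutants it was -0.13 (limma adjusted *P* = 0.9996). The mutants differed by 0.29 (standard error 0.0991, limma adjusted *P* = 0.0465), with 2 of 3 *Fzd3* mutant libraries above all *Celsr3* mutant libraries. This call was lost in 10 of 18 alternatives, with limma adjusted *P* from 0.00480 to 0.165 over all 18. Of the libraries left out in turn, control 1, 2 and 3 gave a limma adjusted *P* = 0.0630, 0.0531 and 0.0547, *Fzd3* mutant 1 and 2 gave 0.161 and 0.163, and *Celsr3* mutant 2 and 4 gave 0.103 and 0.165.

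GABA is made by 2 glutamate decarboxylases. *Gad1* (XLOC_016912, chr2:70553072-70602014) encodes GAD67, the main source of GABA before birth, and was at 34.4, 29.9 and 42.3 CPM in controls, 49.7, 41.5 and 36.9 CPM in *Fzd3* mutants and 34.1, 27.4 and 25.9 CPM in *Celsr3* mutants. Each mutant overlapped the controls, but the lowest *Fzd3* mutant library was above the highest *Celsr3* mutant library. For *Fzd3* mutants the log2 fold change was 0.27 (standard error 0.142, limma adjusted *P* = 0.181). In *Celsr3* mutants it was -0.28 (limma adjusted *P* = 0.947). Between the mutants *Gad1* differed by 0.54 (standard error 0.142, limma adjusted *P* = 0.0146, higher in 3 of 3 libraries), 1.47 times the *Celsr3* mutant level. This call was lost in 4 of 18 alternatives, 3 of them without *Fzd3* mutant library 1, *Celsr3* mutant library 2 or *Celsr3* mutant library 4 (limma adjusted *P* = 0.0673, 0.0511 and 0.0570, with 0.00792 to 0.0781 over all alternatives).

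*Gad2* (XLOC_016482, chr2:22622205-22693874) encodes GAD65, the decarboxylase attached to synaptic vesicles. It was at 28.0, 29.5 and 30.5 CPM in controls, 29.7, 28.1 and 29.3 CPM in *Fzd3* mutants and 27.4, 24.0 and 22.6 CPM in *Celsr3* mutants. Controls and *Fzd3* mutants shared a narrow range, and the 3 *Celsr3* mutant libraries lay below the other 6. In *Fzd3* mutants the log2 fold change was -0.01, with a 95% confidence interval of -0.17 to 0.15, the narrowest of the 9 markers. Between the mutants *Gad2* differed by 0.23 (standard error 0.0728, limma adjusted *P* = 0.0327, higher in 3 of 3 libraries). The call was lost in 6 of 18 alternatives (limma adjusted *P* from 0.00748 to 0.246 over all 18). Without *Fzd3* mutant library 1, 2 or 3 it was 0.0998, 0.0561 and 0.0674, and without *Celsr3* mutant library 2 or 4 it was 0.0989 and 0.124. *Slc32a1* (XLOC_017793, chr2:158610767-158615748), the transporter that loads GABA into vesicles, was at 8.98, 8.62 and 11.4 CPM in controls, 10.3, 9.91 and 7.75 CPM in *Fzd3* mutants and 9.87, 8.71 and 6.82 CPM in *Celsr3* mutants. The genotypes overlapped, and control library 3 was the highest and *Celsr3* mutant library 4 the lowest. Its 95% confidence intervals were -0.38 to 0.29 in *Fzd3* mutants and -0.52 to 0.15 in *Celsr3* mutants. *Gm14205*, also listed, is annotated across *Slc32a1* on the other strand, as are *Gad1os* at *Gad1* and *Dlx1as* at *Dlx1*. Use of strand is not given in the sources used here, so that reads of a gene and its antisense partner cannot be told apart.

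*Sst* (XLOC_012531, chr16:23889573-23890958) encodes somatostatin, the peptide of a large class of interneurons from the medial eminence. It was at 15.7, 12.4 and 23.6 CPM in controls, 17.9, 14.2 and 8.13 CPM in *Fzd3* mutants and 13.7, 9.51 and 8.09 CPM in *Celsr3* mutants. The genotypes overlapped and *Sst* had the widest relative spread of the 9 markers in each of them, an s.d. of 33.4, 36.9 and 28.0% of the mean. The log2 fold change was -0.37 in *Fzd3* mutants (95% confidence interval -1.005 to 0.27, limma adjusted *P* = 0.367). In *Celsr3* mutants it was -0.68 (-1.32 to -0.05, limma adjusted *P* = 0.884), lower than the mean of controls in 3 of 3 libraries.

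*Npy* (XLOC_026473, chr6:49822710-49829507) encodes a peptide found in cortical interneurons, many of which also make somatostatin. It was at 16.03, 18.8 and 17.0 CPM in controls, 75.2, 72.2 and 57.3 CPM in *Fzd3* mutants and 28.0, 21.04 and 20.96 CPM in *Celsr3* mutants. The lowest *Fzd3* mutant library was more than 3 times the highest control, and the *Celsr3* mutants lay between the other genotypes without overlap. The genotype means were 17.3 ± 1.42 CPM in controls, 68.2 ± 9.57 CPM in *Fzd3* mutants and 23.3 ± 4.05 CPM in *Celsr3* mutants (s.d., n = 3). *Npy* rose in *Fzd3* mutants by 1.94 on the log2 scale (95% confidence interval 1.67 to 2.22, limma adjusted *P* = 2.46e-06, higher in 3 of 3 libraries). It passed in all 18 alternatives, with log2 fold changes from 1.87 to 2.06, and was number 74 of 14670 genes by fold change upwards. In *Celsr3* mutants the log2 fold change was 0.41 (95% confidence interval 0.14 to 0.69, limma adjusted *P* = 0.560, higher in 3 of 3 libraries), 1.35 times the control level, which did not pass. The difference between the mutants was 1.53 (1.26 to 1.81, limma adjusted *P* = 2.31e-05) and also passed in all 18.

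Of the 9 markers, 6 lie on chromosome 2, which holds 8.47% of the 13786 listed genes with a matched position. Promoters of 300 bases, from 250 before to 50 after a start site, were at hand for 8 of the 9 in RefSeq for GRCm38.p6 (10 entries, 3 of them for *Lhx6*), with no entry for *Dlx5*. *Npy*, called in both comparisons with *Fzd3* mutants, is shown with *Sst*, the other peptide gene, and with the decarboxylases, called between the mutants. They read 5′ to 3′, with matches to the searched motifs in capitals. The searched letters were the cAMP response element TGACGTCA, found in 1.79% of all 32851 promoters, and the homeodomain words TAATTA, found in 5.29%, and TAATTG, found in 8.0%. Further words were the E-box CAGCTG, found in 16.3%, the TATA box TATAAA, found in 13.6%, and the GC box GGGCGG, found in 35.7%. Both strands were read, and no match overlapped another.
Npy: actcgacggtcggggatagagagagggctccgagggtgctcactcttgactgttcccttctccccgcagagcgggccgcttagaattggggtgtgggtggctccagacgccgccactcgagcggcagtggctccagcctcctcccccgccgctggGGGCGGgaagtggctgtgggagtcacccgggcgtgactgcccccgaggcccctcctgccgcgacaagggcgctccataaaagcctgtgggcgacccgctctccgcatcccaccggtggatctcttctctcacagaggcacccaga
Sst: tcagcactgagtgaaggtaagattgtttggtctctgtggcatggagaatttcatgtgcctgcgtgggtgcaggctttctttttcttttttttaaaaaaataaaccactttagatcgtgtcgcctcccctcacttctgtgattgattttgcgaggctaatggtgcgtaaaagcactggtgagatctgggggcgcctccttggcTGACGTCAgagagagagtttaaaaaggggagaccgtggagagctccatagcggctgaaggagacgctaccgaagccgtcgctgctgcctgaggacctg
Gad1: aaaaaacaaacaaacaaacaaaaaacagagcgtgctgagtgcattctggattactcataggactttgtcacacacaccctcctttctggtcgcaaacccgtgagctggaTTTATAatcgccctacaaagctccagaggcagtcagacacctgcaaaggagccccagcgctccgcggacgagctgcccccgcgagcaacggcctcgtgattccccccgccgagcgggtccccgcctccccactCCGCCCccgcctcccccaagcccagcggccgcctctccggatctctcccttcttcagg
Gad2: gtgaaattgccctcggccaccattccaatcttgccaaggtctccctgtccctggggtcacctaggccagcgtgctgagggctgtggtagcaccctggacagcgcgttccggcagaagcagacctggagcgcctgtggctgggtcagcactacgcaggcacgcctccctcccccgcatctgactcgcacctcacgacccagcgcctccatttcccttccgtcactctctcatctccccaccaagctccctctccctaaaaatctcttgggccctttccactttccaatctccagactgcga
The *Npy* window (chr6:49822460-49822759, plus strand) had a GGGCGG 95 bases before the start and a GC content of 68.0%, against a median of 52.7% over all promoters. The *Sst* window (chr16:23890795-23891094, minus strand, 50.3% GC) had the palindrome TGACGTCA 48 bases before the start, and it was the only entry of the 10 with these letters. The *Gad1* window (chr2:70561879-70562178, plus strand, 60.0% GC) had TATAAA and GGGCGG on the reverse strand, 141 and 8 bases before the start. None of the searched letters was in the *Gad2* window (chr2:22622077-22622376, plus strand, 61.3% GC). A match describes the letters and not a site of binding.

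Levels of different genes were compared as CPM per kb of all annotated exons, from GENCODE. That length was 566 bases for *Npy*, 721 for *Sst*, 5396 for *Dlx1* and 7639 for *Gad1*. Exons that are not used in this tissue count in full, so the order below can depend on the annotation. On that scale the level in controls was 30.6 ± 2.51 for *Npy*, 23.9 ± 7.99 for *Sst*, 16.6 ± 1.395 for *Dlx1* and 12.4 ± 0.432 for *Lhx6* (s.d., n = 3). Below them came levels of 4.99 ± 0.209 CPM per kb for *Gad2*, 4.65 ± 0.824 for *Gad1*, 4.12 ± 0.387 for *Dlx2*, 3.45 ± 0.533 for *Slc32a1* and 2.102 ± 0.376 for *Dlx5*. Control libraries of neighbours in this order of CPM per kb overlapped between *Npy* and *Sst*, between *Sst* and *Dlx1*, and from *Gad2* through *Gad1* and *Dlx2* to *Slc32a1*, and were apart between *Dlx1* and *Lhx6*, between *Lhx6* and *Gad2* and between *Slc32a1* and *Dlx5*. In *Fzd3* mutants the level of *Npy* was 121 ± 16.9 CPM per kb and that of *Sst* 18.6 ± 6.86. In *Celsr3* mutants these levels were 41.2 ± 7.16 and 14.5 ± 4.06 CPM per kb. The order of the means per kb was the same in all 3 genotypes except that *Gad1* stood above *Gad2* in *Fzd3* mutants.

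Within each mutant genotype the markers tended to be high or low in the same library. *Fzd3* mutant library 1 was the highest of its genotype in 8 of 9 markers and library 3 the lowest in 8. Among the *Celsr3* mutants library 1 was the highest in 9 and library 4 the lowest in 8. The controls had no such order, as control library 3 was the highest in 5 markers and control library 2 the highest in 4 and the lowest in 4, with control library 1 the lowest in 4. Over all genes each library was the highest of its genotype in 30.5 to 36.3%. The summed level of the 8 markers other than *Npy* was 247, 245 and 280.2 CPM in controls, 293, 271 and 226 CPM in *Fzd3* mutants and 248, 210.1 and 193 CPM in *Celsr3* mutants. These sums overlapped between genotypes.

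**Figure D3:**
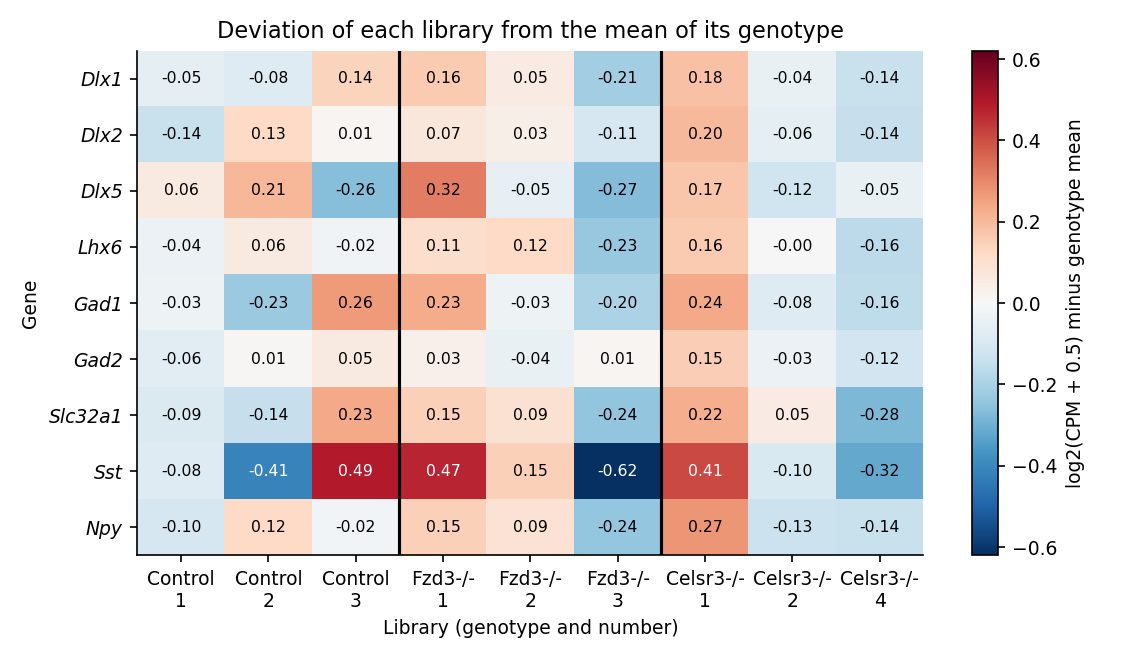
Deviation of each marker in each library from the mean of its genotype, as a difference of log2(CPM + 0.5). *Fzd3* mutant library 1 and *Celsr3* mutant library 1 are above the genotype mean for most markers, and *Fzd3* mutant library 3 and *Celsr3* mutant library 4 below it, with median deviations of 0.15, 0.20, -0.23 and -0.14.

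Ratios within a library set a marker against another of the same library, and the ratios given here were chosen after their values were seen. *Npy* to *Lhx6*, as a ratio of CPM, was 0.276, 0.304 and 0.290 among the controls, 1.04, 0.992 and 1.01 among the *Fzd3* mutants and 0.459, 0.387 and 0.431 among the *Celsr3* mutants. The 3 genotypes were apart and the libraries of each lay close together. Each pair of genotypes gave a two-sided exact permutation *P* = 0.1, the smallest that 3 against 3 allows. For these ratios such a value only restates that the libraries do not overlap and adds no support. *Sst* to *Lhx6* was 0.271, 0.200 and 0.402 among the controls, 0.249, 0.195 and 0.143 among the *Fzd3* mutants and 0.225, 0.175 and 0.166 among the *Celsr3* mutants. These ratios overlapped, with an exact permutation *P* = 0.2 for each mutant against control. *Gad1* to *Dlx1* was 0.400, 0.354 and 0.431 among the controls, 0.521, 0.469 and 0.502 among the *Fzd3* mutants and 0.403, 0.379 and 0.382 among the *Celsr3* mutants. The *Fzd3* mutants were above both other genotypes, which the exact permutation *P* = 0.1 for each, the smallest possible, only restates. The *Celsr3* mutants overlapped the controls (exact permutation *P* = 0.9). Of the 4 other ratios computed, *Gad1* to *Gad2* and *Gad1* to *Lhx6* overlapped between *Fzd3* mutants and controls (exact permutation *P* = 0.2 and 0.7), and *Npy* to *Sst* and *Dlx1* to *Lhx6* did not (*P* = 0.1 for each). Between the mutants *Sst* to *Lhx6* overlapped (exact permutation *P* = 0.9).

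**Figure D4:**
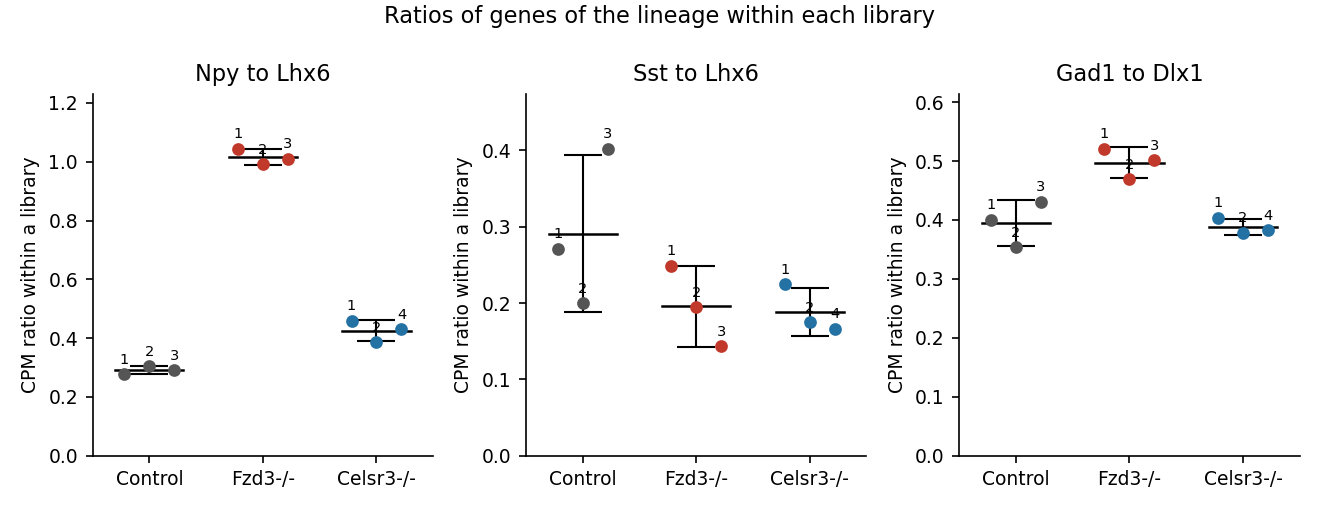
Ratios of CPM between markers in each library, with horizontal lines for genotype means and error bars for s.d. (n = 3 libraries). The mean of *Npy* to *Lhx6* is 0.290 for the controls, 1.02 for the *Fzd3* mutants and 0.425 for the *Celsr3* mutants, without overlap.

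Genes of GABA handling were read from a list of 9, of which 7 were listed (not *Slc6a13* and *Slc12a5*), 3 of them the markers *Gad1*, *Gad2* and *Slc32a1*. In *Fzd3* mutants 2 of the 7 rose and 0 fell by limma, as many as at an unadjusted *P* under 0.05, with a median log2 fold change of 0.23, against 15.0% of all genes higher and a median of -0.00. Both genes that rose were among the 4 that are not markers, whose median was 0.30. *Slc6a11*, which encodes the GABA transporter GAT3, was at 12.2, 10.6 and 18.8 CPM in controls, 29.2, 24.3 and 20.9 CPM in *Fzd3* mutants and 15.98, 9.65 and 8.76 CPM in *Celsr3* mutants. All 3 *Fzd3* mutant libraries were above the controls (log2 fold change 0.84, limma adjusted *P* = 0.0198) and the call was not kept in 4 of 18 alternatives (limma adjusted *P* from 0.00516 to 0.0826). *Slc12a2*, the chloride importer NKCC1, was the most abundant of the list, at 64.1, 64.3 and 57.2 CPM in controls, 78.3, 82.1 and 79.6 CPM in *Fzd3* mutants and 57.3, 62.8 and 63.1 CPM in *Celsr3* mutants. The *Fzd3* mutants lay above the other 6 libraries (log2 fold change 0.37, limma adjusted *P* = 0.000937) and the call was kept in all 18 alternatives. With a library left out, named by genotype and number here and below, the count was 1 without control 1, control 2, *Fzd3* mutant 1 or *Fzd3* mutant 2. Between the mutants 5 of 7 were called higher in *Fzd3* mutants, with a median of 0.39, against 15.3% of all genes. Of these 5, *Gad1* and *Gad2* are markers, and 3 of the 4 other genes were called, with a median of 0.46. The count over all 7 was 2 without *Fzd3* mutant 1, *Celsr3* mutant 2 or *Celsr3* mutant 4 and 3 without *Fzd3* mutant 2.

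The list of ventral factors holds transcription factors of the ventral forebrain and also the antisense RNA *Dlx6os1*, which is not one of them. Of its 12 genes 9 were listed (not *Gsx1*, *Gsx2* and *Nkx2-1*), with the markers *Dlx1*, *Dlx2* and *Dlx5* among them. In *Fzd3* mutants 0 rose and 1 fell by limma, as many as at an unadjusted *P* under 0.05. The gene was *Sp9* (-0.30, limma adjusted *P* = 0.0410, 3 of 3 libraries lower), and the median log2 fold change was -0.02, or 0.16 without the 3 markers. Over all genes 15.0% were higher and 14.8% lower. The call of *Sp9* was lost in 10 of 18 alternatives. The count lower was 0 without control 2, control 3, *Fzd3* mutant 1, *Fzd3* mutant 2, *Fzd3* mutant 3, *Celsr3* mutant 1 or *Celsr3* mutant 2, and the count higher was 1 without *Fzd3* mutant 3. Between the mutants 3 were called higher in *Fzd3* mutants, against 15.3% of all genes, and these 3 are not markers. They include *Sp8* (0.55) and *Dlx6os1* (0.40), whose calls were lost in 4 of 17 and 5 of 18 alternatives. The count was 1 without *Fzd3* mutant 1 or *Celsr3* mutant 4, and over all alternatives it was 0 to 3.

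Of 17 genes of interneurons from the medial eminence, 15 were listed (not *Lhx8* and *Pvalb*), with the markers *Lhx6*, *Sst* and *Npy* among them, and in *Fzd3* mutants 6 rose and 1 fell, with a median log2 fold change of 0.21. Without the 3 markers 5 rose and 1 fell, with the same median. This compares with 15.0% of all genes higher and 14.8% lower, and over the alternatives 5 to 7 rose and 1 fell. Besides *Npy*, the genes that rose included *Npas1* (0.67, limma adjusted *P* = 0.00666), *Maf* (0.50, limma adjusted *P* = 0.00335), *Zeb2* (0.21, limma adjusted *P* = 0.0321) and *Satb1* (0.16, limma adjusted *P* = 0.0147), as log2 fold changes. The call of *Zeb2* was lost in 4 of 18 alternatives and that of *Satb1* in 1, without *Fzd3* mutant library 2, and those of *Npas1* and *Maf* were kept in all. *Maf* encodes a transcription factor that promotes the fates of these interneurons, and *Zeb2*, the most abundant of the list, and *Satb1* are also made by cortical excitatory neurons. *Sox6*, a factor acting downstream of *Lhx6* that is also made by cortical progenitors, was at 71.9, 70.7 and 67.9 CPM in controls, 47.8, 46.4 and 45.5 CPM in *Fzd3* mutants and 61.5, 64.2 and 66.0 CPM in *Celsr3* mutants. It fell in *Fzd3* mutants, all below the other 6 libraries (log2 fold change -0.59, limma adjusted *P* = 1.24e-05). Between the mutants 8 were called higher, *Npy* and *Lhx6* among them, and 1 lower, with a median of 0.32, against 15.3% and 14.3% of all genes. The number higher was 3 without *Fzd3* mutant 1 or *Celsr3* mutant 4 and 5 without *Fzd3* mutant 2 and 4 without *Celsr3* mutant 2.

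Markers of interneurons from the caudal eminence were listed for 9 of 10 (not *Vip*). In *Fzd3* mutants 2 rose and 1 fell, with a median log2 fold change of 0.33, beside 15.0% and 14.8% of all genes. These counts were 5 and 1 at an unadjusted *P* under 0.05, against 41.4% of all genes. *Prox1*, a homeodomain factor of these cells, was at 5.90, 6.01 and 5.97 CPM in controls, 14.3, 13.0 and 10.0 CPM in *Fzd3* mutants and 5.93, 6.82 and 5.14 CPM in *Celsr3* mutants. The *Fzd3* mutants lay well above the other 6 libraries (log2 fold change 0.99, limma adjusted *P* = 0.000410), and the call held in all 18 alternatives. *Cck* rose (0.51, limma adjusted *P* = 0.0369, 3 of 3 libraries higher) and *Nr2f1*, the most abundant of the list, fell (-0.23, limma adjusted *P* = 0.0210, with overlap), calls lost in 5 of 17 and 6 of 18 alternatives. *Nr2f1* was at 177, 199 and 198 CPM in controls, far above *Prox1*. Whether its reads came from these interneurons or from other cortical cells was not tested. The number that rose was 1 without control 1, control 2, control 3 or *Fzd3* mutant 2, 3 without *Fzd3* mutant 3 and 1 to 4 over all alternatives, and the number that fell was 0 without control 2, control 3, *Fzd3* mutant 2 or *Fzd3* mutant 3. Between the mutants 6 were called higher and 1 lower, against 15.3% and 14.3% of all genes. They were led by *Htr3a* (1.37), *Prox1* (0.997) and *Calb2* (0.81), calls kept in every alternative that gave a value, and the number higher was 3 without *Fzd3* mutant 1 or *Celsr3* mutant 4.

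Guidance of migrating interneurons was read from 15 cues and receptors, all listed. In *Fzd3* mutants 3 rose and 1 fell, with a median log2 fold change of 0.15, beside 15.0% of all genes higher and 14.8% lower. These counts were 7 and 2 at an unadjusted *P* under 0.05, against 41.4% of all genes. *Met*, the receptor of hepatocyte growth factor, which is also made by projection neurons, was at 14.5, 12.9 and 18.8 CPM in controls, 50.6, 54.6 and 40.2 CPM in *Fzd3* mutants and 19.96, 13.2 and 13.5 CPM in *Celsr3* mutants. The lowest *Fzd3* mutant library was above the highest of the other 6 (log2 fold change 1.63, limma adjusted *P* = 9.62e-05, kept in all 18 alternatives). *Cxcr4*, the chemokine receptor that keeps these cells in their streams, rose by 0.37 (limma adjusted *P* = 0.0246, 3 of 3 libraries higher) and *Nrg3* by 0.34 (limma adjusted *P* = 0.0121), whereas *Epha4* fell (-0.28, limma adjusted *P* = 0.0174). The calls of *Cxcr4*, *Nrg3* and *Epha4* were lost in 5, 1 and 3 of 18 alternatives. The number that rose was 1 without *Fzd3* mutant 1 and 5 without *Celsr3* mutant 4, and the number that fell was 0 without control 1, control 2 or *Fzd3* mutant 1. *Robo2*, the most abundant of the list, had a log2 fold change of 0.15 (limma adjusted *P* = 0.0544). Between the mutants 6 were called higher and 1 lower, with a median of 0.19 (0.09 without *Fzd3* mutant 1), against 15.3% and 14.3% of all genes. *Gfra1* (0.69) was among them and kept its call in all 18 alternatives. The number higher was 4 without *Fzd3* mutant 1 or *Celsr3* mutant 4, and the number lower was 0 without *Fzd3* mutant 1, *Fzd3* mutant 2, *Celsr3* mutant 2 or *Celsr3* mutant 4.

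In *Celsr3* mutants against control, none of the 114 listed genes of the 13 lists with a listed gene was called by limma, also without library 4, where 0.307% of all genes were called with all libraries. At an unadjusted *P* under 0.05 there were 24, against 5.45% of all genes. The median log2 fold change was -0.25 for GABA handling, -0.20 for the ventral factors, -0.11 for the medial, -0.18 for the caudal eminence list and -0.05 for guidance, beside -0.00 over all genes. With each library left out in turn these medians were -0.32 to -0.07, -0.25 to -0.12, -0.13 to -0.05, -0.19 to -0.15 and -0.09 to -0.01, in the same order. For GABA handling the median was nearest 0 without control 3, for the ventral factors without control 2, and for the medial list and guidance without *Celsr3* mutant 4.

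**Figure D5:**
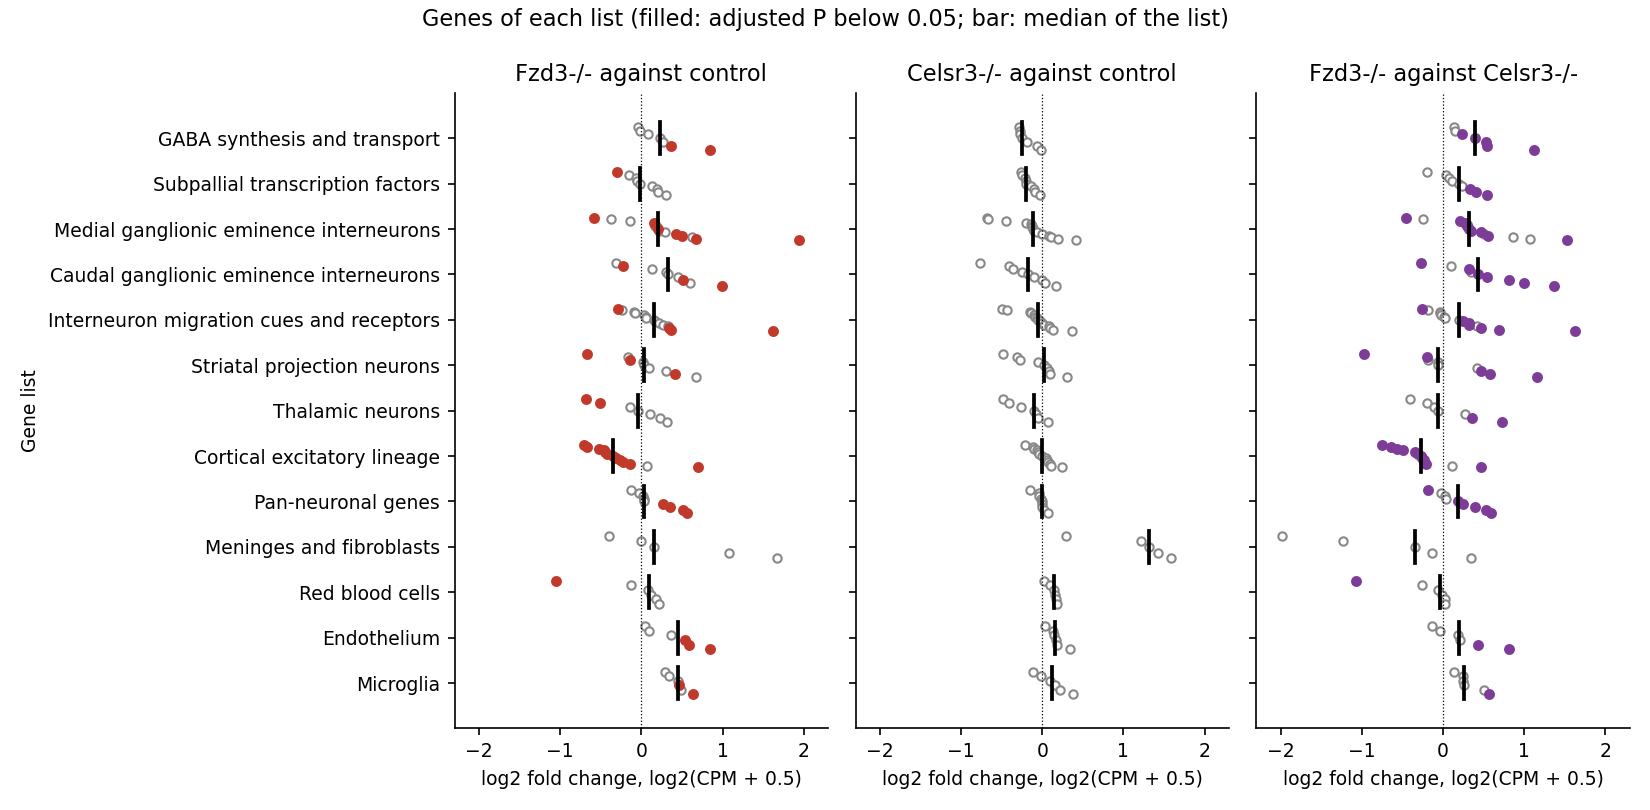
Log2 fold change of each listed gene of the gene lists in the comparisons, with filled points for an adjusted *P* below 0.05 and a line at each median. The list of cortical excitatory genes lies mostly below 0 in *Fzd3* mutants, with a median of -0.35, and the medial and caudal eminence lists have medians of 0.21 and 0.33.

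Markers of other cells were read in the same libraries, where 15.0% of all genes rose in *Fzd3* mutants and 14.8% fell. Of 14 genes of the cortical excitatory lineage, 13 were listed, and in *Fzd3* mutants 1 rose and 11 fell, with a median log2 fold change of -0.35. The number that fell was 8 to 11 over the alternatives. Their sum was 3349, 3538 and 3115 CPM in controls, 3053, 3056 and 3153 CPM in *Fzd3* mutants and 3389.9, 3495 and 3425 CPM in *Celsr3* mutants. The largest falls were those of *Pax6* (-0.70) and *Eomes* (-0.67), factors of cortical progenitors, each not overlapping the controls, and the most abundant was *Neurod6* (-0.22). Genes common to neurons were listed for 9 of 10 (not *Tubb3*), and by limma 4 rose and 0 fell, with 1 lower at an unadjusted *P* under 0.05, a median of 0.04 and *Dcx* the most abundant.

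Striatal projection neurons had 9 of 19 markers listed, with *Six3*, *Isl1*, *Drd2* and *Penk* among those not listed, and in *Fzd3* mutants 1 rose and 2 fell (median 0.03). The number that rose was 0 without control 1, control 2, *Fzd3* mutant 1, *Fzd3* mutant 2 or *Fzd3* mutant 3 and 2 without *Celsr3* mutant 4, and the number that fell was 1 without control 2, control 3, *Fzd3* mutant 1, *Fzd3* mutant 2 or *Fzd3* mutant 3. For thalamic neurons 7 of 8 were listed (not *Gbx2*), and 0 rose and 2 fell by limma (0 and 3 at an unadjusted *P* under 0.05, median -0.04), the number that fell being 1 without control 1, control 3, *Fzd3* mutant 1, *Fzd3* mutant 3 or *Celsr3* mutant 2 and 0 without *Fzd3* mutant 2 and the number that rose 1 without *Fzd3* mutant 1. Their sums were 477, 483 and 468 CPM for the striatal and 123, 113 and 125 CPM for the thalamic list in controls. In *Fzd3* mutants the sums were 445, 441 and 439 and 112, 119.9 and 115 CPM, and in *Celsr3* mutants 498, 492 and 487 and 113, 115 and 120.3 CPM. *Meis2* made up most of the striatal sum in each library, and *Slc17a6* was the most abundant gene of the thalamic list. Whether the reads of these genes came from striatal and thalamic neurons or from cortical cells was not tested. The sums are therefore not a measure of RNA from striatal or thalamic neurons.

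Endothelial genes, 6 of 6 listed, summed to 94.7, 96.6 and 98.6 CPM in controls, 143, 136 and 125 CPM in *Fzd3* mutants and 105, 90.6 and 135 CPM in *Celsr3* mutants, and in *Fzd3* mutants 3 rose and 0 fell by limma (4 and 0 at an unadjusted *P* under 0.05, median 0.45, most abundant *Kdr*). Microglial genes, 6 of 6 listed, summed to 29.7, 33.4 and 32.4 CPM in controls, 52.7, 49.1 and 36.4 CPM in *Fzd3* mutants and 34.1, 35.5 and 42.2 CPM in *Celsr3* mutants. In *Fzd3* mutants 2 of them rose and 0 fell by limma (4 and 0 at an unadjusted *P* under 0.05, median 0.45, most abundant *Csf1r*), the number that rose being 1 without control 2 or *Fzd3* mutant 1 and 4 without *Fzd3* mutant 3. Of 7 genes of red blood cells 6 were listed (not *Hbb-b1*), and they summed to 1765, 1917 and 2039 CPM in controls, 2285, 2443 and 1569 CPM in *Fzd3* mutants and 2416, 1584 and 2536 CPM in *Celsr3* mutants. Of these 1 fell, *Hbb-y* (-1.05), and the number that fell was 0 without control 1, control 2, *Fzd3* mutant 1, *Fzd3* mutant 2 or *Fzd3* mutant 3, with *Hba-a1* the most abundant and a median of 0.10. Of the fibroblast markers 0 of 5 were called in *Fzd3* mutants by limma (1 higher at an unadjusted *P* under 0.05, median 0.15), and 2 without *Celsr3* mutant library 4. In *Celsr3* mutants their median was 1.32, and 0.32 without library 4. None of 6 choroid plexus markers was listed, *Ttr* among them. The part of these other cells in the values of the interneuron markers was not tested.

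Between the mutants 1 gene of the excitatory lineage was higher and 10 were lower (median -0.28), against 15.3% and 14.3% of all genes, with 1 and 7 to 11 over the alternatives. Of the genes common to neurons 5 were higher and 1 was lower (median 0.19), with 3 and 0 when 1 library was left out, *Fzd3* mutant 1, *Fzd3* mutant 2, *Celsr3* mutant 2 or *Celsr3* mutant 4. The striatal list had 3 higher and 2 lower (median -0.06), and the number higher was 1 without *Fzd3* mutant 1, *Celsr3* mutant 2 or *Celsr3* mutant 4. Over all alternatives 0 to 3 were higher and 1 to 3 lower, and the median was 0.18 without *Celsr3* mutant 4. The thalamic list had 2 higher and 0 lower by limma (2 and 1 at an unadjusted *P* under 0.05, median -0.06), and the number higher was 1 without *Fzd3* mutant 2 or *Celsr3* mutant 2. This number was 0 to 2 over all alternatives. For the endothelial list 2 were higher and 0 lower (2 and 0 at an unadjusted *P* under 0.05, median 0.19), with the number higher 1 without *Fzd3* mutant 1, *Fzd3* mutant 2 or *Celsr3* mutant 2 and 4 without *Celsr3* mutant 4. The endothelial median was 0.07 without *Celsr3* mutant 2 and 0.39 without *Celsr3* mutant 4. The microglial list had 1 higher and 0 lower (2 and 0 at an unadjusted *P* under 0.05, median 0.25), with the number higher 0 without *Fzd3* mutant 2 or *Celsr3* mutant 1 and 3 without *Fzd3* mutant 3 and 2 without *Celsr3* mutant 4. Of the red blood cell genes 0 were higher and 1 was lower (0 and 1 at an unadjusted *P* under 0.05, median -0.04), with the number lower 0 without *Fzd3* mutant 1, *Fzd3* mutant 3, *Celsr3* mutant 1 or *Celsr3* mutant 4. By limma 0 of the 5 fibroblast markers were called (0 higher and 1 lower at an unadjusted *P* under 0.05, median -0.34), with the number lower 1 without *Celsr3* mutant 2. Without *Celsr3* mutant 4 the median was 0.12 for the fibroblast markers and 0.11 for the red blood cell genes.

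The profile of the 9 markers, as the mean of their standardized log2 values, was set against 11577 other genes whose mean over the 9 libraries was 5 CPM or more. The 5 most alike, with Pearson's r and Spearman's rho, were *Ywhag* (0.951 and 0.933), *Tgfa* (0.948 and 0.983), *Vps52* (0.940 and 0.933), *Gm20721* (0.940 and 0.883) and *Clip2* (0.936 and 0.850). After the mean of each genotype was taken away they were *Fgd3* (0.977 and 0.933), *Slc6a6* (0.973 and 1.00), *Cxx1b* (0.970 and 0.967), *Tspan3* (0.970 and 0.933) and *Zbtb5* (0.969 and 0.967). The libraries are shared by all genes, and these coefficients are descriptions. Each marker was also set against the profile of the 8 others, so that it was not compared with itself. On this measure *Npy* had an r of 0.300 over the 9 libraries and of 0.883 once the genotype means were taken away. *Dlx5* had 0.451 and 0.465, and the other 7 at least 0.679 on either measure.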

How the data were processed

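The deposited table held CPM for 14670 genes, computed by the authors' sequencing company from Illumina reads of 9 libraries. The submitters' processing notes list FastQC, TopHat, TopHat2, Bowtie, Cufflinks 2.1.1 and edgeR 2.12, and the builds GRCm38 and GRCh37, with no role stated. Positions and exon lengths came from GENCODE release 21 for GRCm38, by symbol. Markers and gene lists were chosen with earlier results of these data known. Library totals were between 990141 and 1012199 CPM, and values were not rescaled. A mean of at least 0.5 CPM was required, which removed 0 genes. Tests used R 4.3.3 and limma 3.58.1 with an abundance trend on log2(CPM + 0.5), with Benjamini-Hochberg adjustment over 14670 genes and a threshold of 0.05, and were tested on simulated data. Ratios were compared with two-sided exact permutation tests, using Python 3.11.15 and scipy 1.17.1. The genes named were all 9 markers, the mutated genes and the 5 genes nearest to the markers' profile by each measure. From each of 14 lists they were up to 6 of the called genes and the most abundant gene. The choroid plexus list had no listed gene and gave none of these. Depths came from reading the smallest step as 1 read, for which 23 to 66 values a library lay within 20 steps where 100 were required, so no count test was run. Alternatives were pseudocounts of 0.1 and 1, no filter, a mean of at least 5 CPM, 2 other scalings, fits of 2 genotypes, a replicate block, limma without the trend, and each library left out in turn. No protein sequences were used here.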

Additional observations from a re-analysis of the deposited data

Results flagged for a closer look

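The direct test between *Fzd3* and *Celsr3* mutants called 4 of the 9 markers, where 29.6% of all genes were called, 15.3% higher. These 4 are given because their change against the shared controls differed between the mutants. *Npy* differed by 1.53 on the log2 scale (limma adjusted *P* = 2.31e-05, 3 of 3 libraries higher). *Gad1* differed by 0.54 (limma adjusted *P* = 0.0146, 3 of 3 libraries higher), *Lhx6* by 0.29 (limma adjusted *P* = 0.0465, with overlap) and *Gad2* by 0.23 (limma adjusted *P* = 0.0327, 3 of 3 libraries higher). The calls of *Gad1*, *Gad2* and *Lhx6* were lost in 4, 6 and 10 of 18 alternatives, and that of *Npy* was kept in all 18. Groups of 3 libraries were not tested for outlying samples.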

How the results depend on the processing

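The log2 fold changes of the 9 markers were recomputed under 18 alternatives, which gave 483 values. Of these 450 kept their direction and side of the threshold, 20 lost a call, 2 gained a call and 11 changed sign, none of the last from a called value. The alternative without a filter repeats the reported values, as the filter removed 0 genes, so 27 of the 483 values, and 1 of the 18 alternatives in each tally, could not change. *Npy* kept its calls in the 17 others. Leaving out each library in turn, so with fewer samples, the number of markers called was 1 to 2 for *Fzd3* mutants against control and 1 to 4 between the mutants. With all libraries, 29.8% and 29.6% of all genes were called in these comparisons. In *Fzd3* mutants leaving out a library gave log2 fold changes of -0.0469 to 0.0124 for *Gad2*, -0.145 to 0.0428 for *Dlx1*, -0.0893 to 0.0415 for *Dlx2* and -0.122 to 0.0749 for *Slc32a1*. Between the mutants it gave -0.0901 to 0.205 for *Dlx5* and -0.00110 to 0.259 for *Slc32a1*. With each library scaled to the same total, *Gad2* in *Fzd3* mutants was 0.000817, while the median over all genes moved from -0.000559 to 0.0148, so this sign change, 1 of the 11, goes with a shift common to all genes. With a replicate block, 29 genes in place of 45 were called in *Celsr3* mutants against control, and 2101 in place of 4346 between the mutants, of them 1 marker in place of 4. The block leaves fewer libraries to compare, since *Celsr3* mutant library 4 has no partner of its number. Under the block the ventral factors had 0 genes in place of 3 called between the mutants, and the fall of *Celsr3* in its mutants did not pass (log2 fold change -0.71, limma adjusted *P* = 0.0699, against 0.00136 to 0.0699 over all alternatives). Deviations of same-numbered libraries had correlations across genes of -0.199 to -0.0696 for controls and *Fzd3* mutants, -0.0132 to 0.0728 for controls and *Celsr3* mutants and -0.0799 to 0.192 for the mutants. Not every library correlated best with its own number. The planned count test was not run, as 23 to 66 values a library lay within 20 steps where its check required 100. The depths and read numbers given rest on the same steps, taken as 1 read, without that requirement being met. *Dlx5* has no value with a mean of at least 5 CPM required. For markers without a call, differences up to the ends of the confidence intervals given are not excluded.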
